A study of Mus musculus with 6 samples.

Results

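The entries numbered miR-297, miR-466, miR-467 and miR-669 belong to rodent microRNA (miRNA) families that are largely encoded by tandem repeats in an intron of the Polycomb-related gene Sfmbt2. They were chosen by number, with any letter or arm suffix, leaving out names that end in an asterisk. The rule gave 35 of the 611 mouse miRNA entries on the array, of which 2 are named miR-297, 14 miR-466, 7 miR-467 and 12 miR-669. A miRNA is a short RNA cut from a hairpin precursor, and its bases 2 to 8, the seed, pair with target messenger RNAs. The 5′ arm (5p) and the 3′ arm (3p) of a hairpin can each give a mature miRNA. The Sfmbt2 locus is imprinted and is best known for expression in trophoblast and embryonic stem cells, and many of its hairpins are near-identical copies rich in UG and CA repeats. A probe may therefore collect signal from several copies, and single members are reported here as array entries whose identity is uncertain to that extent.

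The RNA came from macrophages grown from bone marrow of C57BL/6 females and was hybridised to 6 one-colour Agilent miRNA arrays on 1 slide. The 3 knockout samples came from MxCre-RBP-Jf/f mice, which lose RBP-J, the DNA-binding partner of activated Notch receptors. The 3 control samples came from MxCre-RBP-Jf/+ mice, which keep 1 unfloxed allele although the sample titles call them WT. Both groups carried the MxCre transgene, whose promoter responds to interferon, both had received poly(I)-poly(C), and all macrophages were given LPS, a bacterial activator, for 24 h. The study asked which miRNAs lie downstream of Notch in macrophage polarization. The arrays do not measure Rbpj mRNA, so the extent of deletion was not checked, and ages were not given in the sources used here. Replicates are numbered with no statement that they were separate animals, so p-values measure the spread between these samples, which may be technical.

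The 6 listed myeloid miRNAs were well above background on every array. Of 22 markers of other cells (lymphoid, erythroid and platelet, endothelial, stromal, epithelial, muscle, neuronal), 0 were detected on any array. Of 5 listed miRNAs of embryonic stem cells or trophoblast 1 was detected, miR-290-5p, on 4 arrays. Outside that list, and named after their values were seen, miR-290-3p of the same cluster was detected on 6 arrays and miR-291b-5p on 5. The summed signal of the 5 listed was 10.2 to 17.2 intensity units in control and 8.02 to 14.99 in knockout arrays. Between 127 and 141 mouse miRNAs were detected per array, and the brightness used for scaling (the 75th percentile of intensity over 200 probes detected on all arrays) was 288, 243 and 352 units in controls 1, 2 and 3 and 227, 186 and 226 units in knockouts 1, 2 and 3. Knockout replicate 2 was thus the dimmest array by this measure.

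RefSeq names place most members in the Sfmbt2 locus, but not all. By name, every matched gene lies within Sfmbt2 for 26 entries and outside it for 5, namely miR-466i, miR-466j, miR-466k, miR-467f and miR-467g. The entries miR-466f-3p and miR-466f-5p have 3 gene copies within Sfmbt2 and 1 outside. The entries miR-466a-3p and miR-466a-5p had no matching lettered gene name. The files of the array name no genome build, so this uses gene order in GRCm38.p6 alone.

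Mature sequences were found in the RefSeq table (GRCm38.p6) for 5 entries, the same 5 that lie outside Sfmbt2. They are shown, with the seed in capitals, because they are the members whose repeat type can be read. The array name miR-466i has no arm, and the table holds only its 3p arm.
miR-466i: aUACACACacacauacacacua
miR-467f: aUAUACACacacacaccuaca
miR-467g: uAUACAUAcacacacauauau
miR-466j: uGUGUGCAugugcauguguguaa
miR-466k: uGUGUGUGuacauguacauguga
The miR-466i sequence lies at chr13:17747552-17747573 on the plus strand and that of miR-467f at chr11:69635419-69635439 on the minus strand. The miR-467g sequence lies at chr5:34732872-34732892 on the minus strand, that of miR-466j at chr10:60960802-60960824 on the plus strand and that of miR-466k at chr3:85467396-85467418 on the plus strand. All 5 seeds differ. The first 3 hold an unbroken alternation of A and C of 11, 12 and 9 bases, and each was detected on at least 1 array. The last 2 hold an alternation of G and U of 7 and 9 bases, and neither was detected on any array.

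The same repeats occur outside the family. Among 158 other array entries whose exact name is in the RefSeq table, GUGUGU was present in 2 (1.27%), and ACACAC or CACACA in 5 (3.16%), read on the strand of the mature miRNA. Those motifs overlap each other within longer repeats. The 2 other entries with GUGUGU were miR-574-5p and miR-1187, and both were detected on all 6 arrays. Of the 5 others with ACACAC or CACACA, 3 were detected on at least 1 array, namely miR-574-3p, miR-342-3p and miR-362-3p. Members included, 8 of 12 matched entries with either motif were detected on at least 1 array (66.7%), against 29 of 151 without (19.2%), as a description. For non-members with either motif it was 5 of 7, and for GUGUGU alone, members included, 2 of 4. The search for ACACAC or CACACA was added after values were seen, so these shares are no test. Sequences of the 5 detected comparison miRNAs follow so that their repeats can be set beside those above, again with the seed in capitals.
miR-574-5p: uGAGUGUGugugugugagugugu
miR-1187: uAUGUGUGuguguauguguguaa
miR-574-3p: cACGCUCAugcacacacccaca
miR-342-3p: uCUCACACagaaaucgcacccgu
miR-362-3p: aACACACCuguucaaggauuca
miR-574-5p and miR-574-3p are the 2 arms of 1 hairpin, at chr5:64970328-64970350 and chr5:64970364-64970385 on the plus strand, and miR-1187 lies at chr5:82798964-82798986 on the minus strand. miR-342-3p lies at chr12:108658680-108658702 on the plus strand and miR-362-3p at chrX:7241984-7242005 on the minus strand.

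By the main detection rule most of the repeat family was not detected in these macrophages, and neither were most other mouse entries. An entry counted as detected on an array when at least 50% of the spots of 1 of its probes carried the scanner's flag for being well above background. On that rule 10 of 35 entries (28.6%) were detected on any array, beside 149 of the 576 other mouse entries (25.9%). Only 2 of 35, miR-669a and miR-669f, were detected on all 6 arrays, against 108 of the 576 others. The detected entries were 4 of 14 for miR-466, 2 of 7 for miR-467 and 4 of 12 for miR-669, and 0 of 2 for miR-297. By arm, 3 of 4 entries named 3p were detected and 0 of 7 named 5p, while 24 entries name no arm. For miR-466a, miR-466f and miR-669h both arms are on the array, and in each the 3p entry was detected and the 5p entry was not. For miR-466d neither arm was detected. Of the 5 entries outside Sfmbt2, 3 were detected, and of the 26 wholly inside it 5 were. With a single flagged spot as the rule instead, 19 of the 35 entries were detected on at least 1 array.

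**Figure D1:**
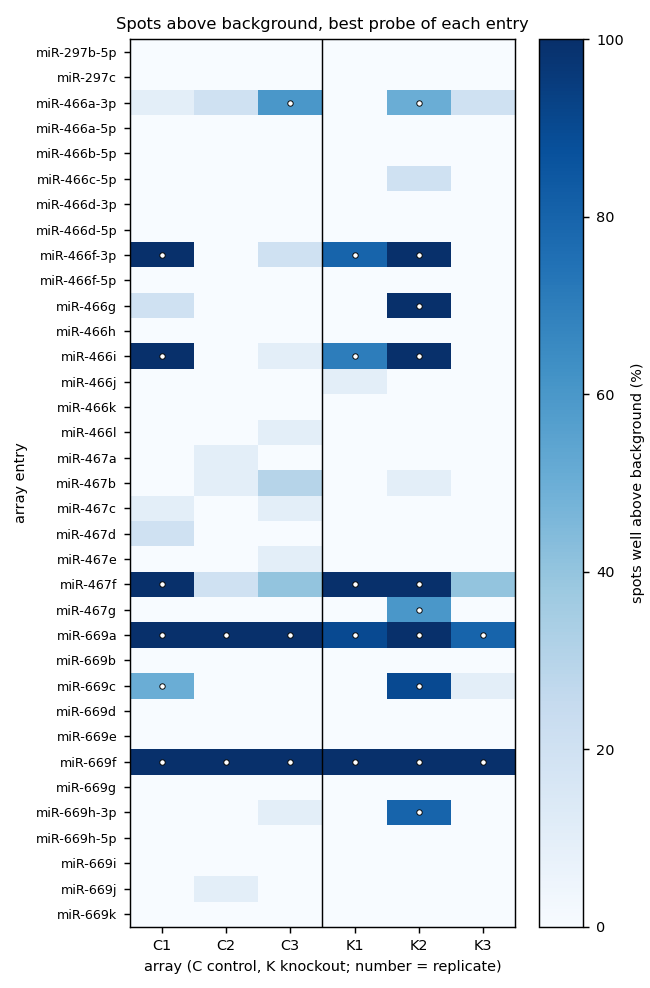
Share of spots well above background (colour, percent, 0 to 100) for the best probe of each of the 35 entries (rows) on the 3 control (C1 to C3) and 3 knockout (K1 to K3) arrays, with a white dot at 50% or more. Only miR-669a and miR-669f have a dot in every column, and K2 has the most dots, 10.

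The 25 undetected entries gave brightest-probe intensities between -5.50 and 9.71 units, and 6 of them stayed at or below 0 on every array. The highest of these was miR-467b, chosen here after its values were seen, with 9.53, 8.05 and 9.71 units in controls 1, 2 and 3 and 4.79, 7.74 and 6.19 units in knockouts 1, 2 and 3. None of these was well above background. Relative to the scaling reference of each array they came to 3.31, 3.32 and 2.76% in controls and 2.11, 4.16 and 2.74% in knockouts, where the groups overlapped. miR-466l, which has been described as raising IL-10 in activated macrophages, stayed between -0.84 and 1.92 units. At this signal a level of miR-466l or of miR-297b-5p and miR-297c was not detectable, which does not show that they are absent.

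The number of detected entries differed mainly by array. It was 6, 2 and 3 in controls 1, 2 and 3 and 5, 10 and 2 in knockouts 1, 2 and 3. Knockout 2 alone showed all 10, and the other knockout arrays lay within the range of the controls. Controls averaged 3.67 ± 2.08 (SD, n = 3) entries and knockouts 5.67 ± 4.04 (SD, n = 3) (two-sided exact permutation p = 0.7, where 0.1 is the smallest p that 3 against 3 allows). With 1 spot well above background as the rule the direction turned, to a mean of 9.33 entries in controls and 7.67 in knockouts. Over the 92 probes of the 35 entries, 9, 2 and 6 were detected in controls 1, 2 and 3 and 5, 22 and 2 in knockouts 1, 2 and 3.

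Intensities are given next as the median of the brightest probe's unflagged spots, with background subtracted by the scanner and no scaling between arrays. Levels of different entries are not comparable, because each has its own probe. In bulk RNA, fewer cells with a miRNA and less of it per cell cannot be told apart.

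Of the 2 entries present on all arrays, miR-669f gave 26.9, 29.6 and 40.6 units in controls 1, 2 and 3 and 25.9, 47.6 and 24.9 units in knockouts 1, 2 and 3. Its lowest and its highest array were both knockouts, so the groups overlapped. miR-669a gave 18.6, 15.3 and 25.7 units in controls 1, 2 and 3 and 14.3, 19.6 and 14.5 units in knockouts 1, 2 and 3. Here control 3 was the brightest array, and 2 of 3 knockouts lay below every control. The SD over the spots of 1 array was 1.60 to 3.73 units for miR-669f and 1.82 to 3.65 units for miR-669a. The span between arrays was 1.91-fold for miR-669f and 1.80-fold for miR-669a. All 12 gene copies named for miR-669a lie within Sfmbt2.

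miR-466a-3p resembled miR-669a in its order of arrays, although it was detected on control 3 and knockout 2 alone. Its intensities were 8.16, 8.03 and 13.8 units in controls 1, 2 and 3 and 7.28, 10.2 and 7.26 units in knockouts 1, 2 and 3. As for miR-669a, control 3 was highest and the groups overlapped.

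miR-467f, miR-466i and miR-466f-3p spanned more between arrays than miR-669a and miR-669f, although their low arrays were not above background. miR-467f gave 22.6, 7.96 and 12.0 units in controls 1, 2 and 3 and 15.6, 46.9 and 11.0 units in knockouts 1, 2 and 3. Knockout 2 was the highest and control 1 the next, and control 2 was the lowest. The SD over spots was 1.54 to 3.79 units, less than the gap of knockout 2 to any other array. The highest array was 5.89-fold the lowest.

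miR-466i gave 18.4, 5.03 and 9.05 units in controls 1, 2 and 3 and 12.6, 36.6 and 6.62 units in knockouts 1, 2 and 3. The arrays fell in the same places at both ends, with knockout 2 above control 1 and control 2 lowest, a 7.28-fold span. miR-466f-3p, the 3′ arm of hairpins of the Sfmbt2 locus with 1 copy elsewhere, gave 29.1, 7.08 and 10.55 units in controls 1, 2 and 3 and 16.3, 41.9 and 8.68 units in knockouts 1, 2 and 3. All 4 of its probes had the same order of arrays. These 3 entries were detected on control 1, knockout 1 and knockout 2, and on no other array.

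The remaining detected entries were seen on 1 or 2 arrays. miR-669c, from within Sfmbt2, was detected on control 1 and knockout 2, with 13.5, 5.64 and 6.58 units in controls 1, 2 and 3 and 8.58, 21.2 and 4.05 units in knockouts 1, 2 and 3. The other 3 entries were detected on knockout 2 alone, so that their being high there is how they passed. miR-466g was at 33.3 units against 1.85 to 10.03 units on the other 5 arrays. Its 4 probes all had knockout 2 as their highest array. miR-669h-3p was at 12.5 units on that array against -0.07 to 6.13 elsewhere. miR-467g was at 10.1 units against 0.21 to 4.56 elsewhere, and 1 of its 4 probes was instead highest on control 1.

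**Figure D2:**
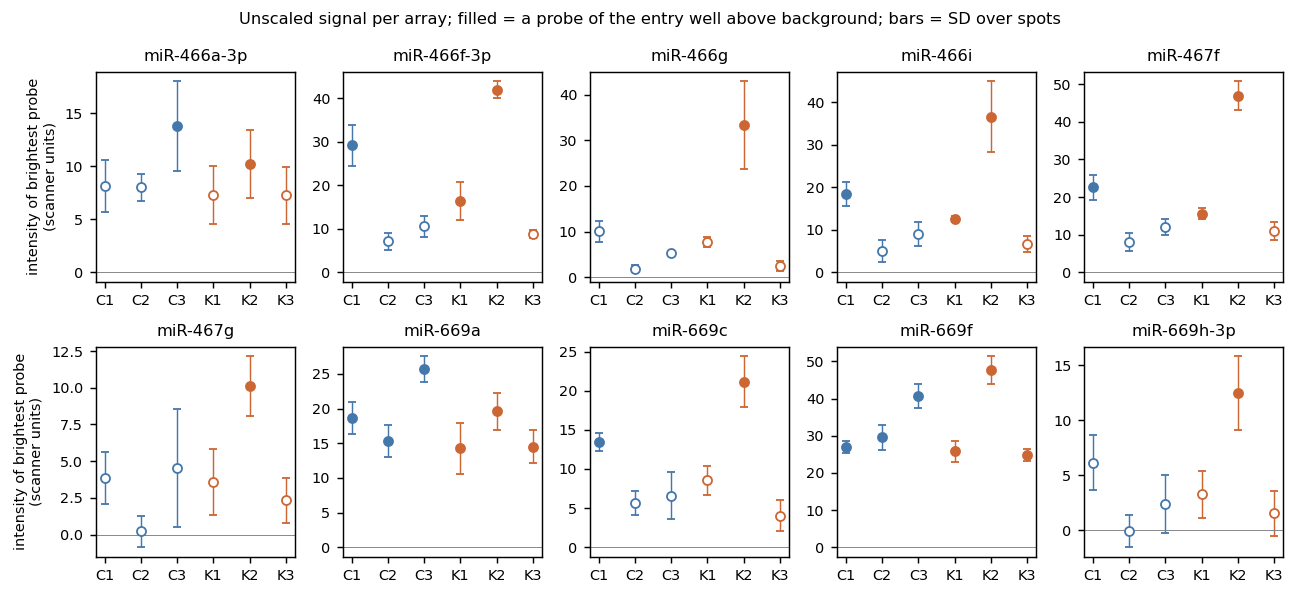
Unscaled intensity (scanner units, linear axis) of the brightest probe of the 10 detected entries on the 3 control (blue) and 3 knockout (orange) arrays, with the SD over spots as bars and filled points where the entry was detected. Knockout 2 is the highest array in 8 of the 10 panels, and control 3 in miR-466a-3p and miR-669a.

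Knockout replicate 2 held high values for the tested entries, those detected on 3 or more arrays. Its unscaled intensity was the highest of the 6 arrays for 4 of the 5 tested members, and for 6.67% of all 135 tested miRNAs. After scaling it was the highest for 5 of 5, beside 31.1% of tested miRNAs. Low values, detected or not, were set to the floor. Scaled signal on knockout 2 relative to the median of the other 5 arrays was then 5.05-fold for miR-467f, 4.51-fold for miR-466f-3p, 3.94-fold for miR-466i, 2.25-fold for miR-669f and 1.63-fold for miR-669a. The median over all tested miRNAs was 1.07-fold. For the first 3 the median of the other arrays was the floor itself, so their order among themselves cannot be read. Each of these 3 was detected on only 2 of the other 5 arrays, so knockout 2 brought it to the 3 arrays needed for testing. Their high values there are thus partly a product of the filter, which limits the shares and ratios above. Knockout 2 was the dimmest array by the scaling reference, and 4 of the 5 were brightest there without scaling too. The part of that array's quality or its RNA in the result was not tested.

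**Figure D3:**
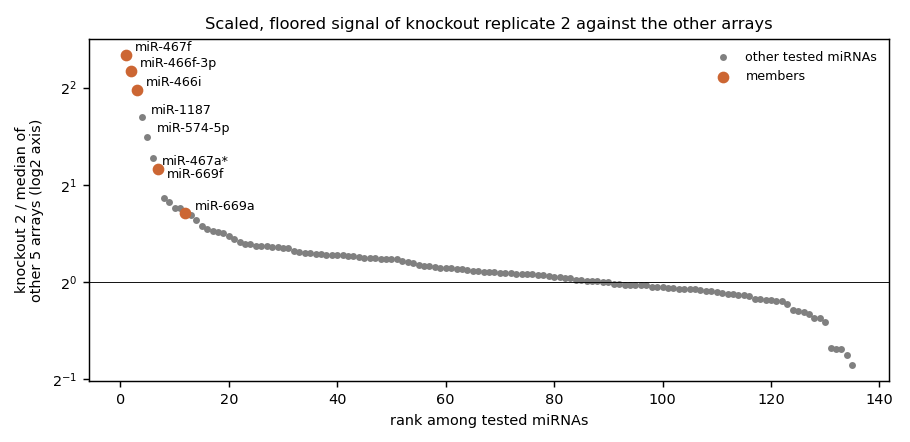
Scaled signal of knockout replicate 2 divided by the median of the other 5 arrays (log2 axis, low values at the floor) for the 135 tested miRNAs in order of that ratio, with the 5 tested members in orange. miR-467f, miR-466f-3p and miR-466i hold the top 3 places, followed by miR-1187, miR-574-5p and miR-467a*, none of which is a member. The top 3 were tested only through their detection on knockout 2, so their places are partly set by the filter.

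The median co-variation of the tested members rested on knockout replicate 2, though not that of every pair. As a description over 6 arrays that share a slide, the median Pearson correlation of scaled signal over the 10 pairs of tested members was 0.93, beside 0.10 over pairs of all tested miRNAs. Because miR-467f, miR-466i and miR-466f-3p were tested only through their detection on knockout 2, the value of 0.93 is partly a product of the filter. Without knockout 2 the median of the tested members was -0.34, against 0.10, and without control 1 as well it was -0.38, against 0.16. Over the 10 detected members the median was 0.95, and it stayed above 0 at 0.43 without knockout 2 and 0.30 without control 1 as well. Of those 10, miR-466g, miR-669h-3p and miR-467g were detected on knockout 2 alone. On the 3 arrays where they were detected, miR-466f-3p, miR-466i and miR-467f had the same order, with knockout 2 above control 1 and control 1 above knockout 1. Over all 6 arrays Spearman's rho was 1 for each pair of these 3 entries. They thus kept a shared order without knockout 2, although 3 of the arrays were not above background. That full order was not particular to members. It was also held by 3 of 130 tested non-members, miR-1187, miR-574-5p and miR-877*. Among the 149 non-members detected on any array it was held by 5, those 3 with miR-574-3p and miR-1196. miR-669a and miR-669f did not have that order, with control 3 and control 2 second after scaling. Spearman's rho between miR-466i and miR-669f was -0.09, although the order of miR-466i includes 3 arrays not above background.

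**Figure D4:**
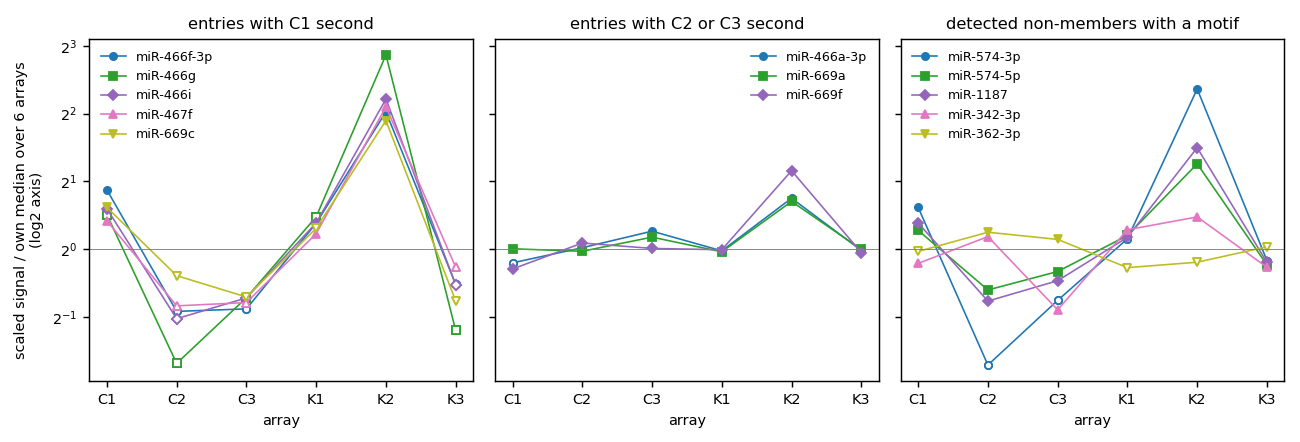
Scaled signal of each entry divided by its own median over the 6 arrays (log2 axis) for 3 controls (C1 to C3) and 3 knockouts (K1 to K3), with open symbols where it was not well above background. The left panel shows 5 members with knockout 2 highest and control 1 next, and the middle panel miR-466a-3p, miR-669a and miR-669f. Not drawn are miR-669h-3p, with a value below 0, and miR-467g, for which knockout 1 came next after knockout 2. The right panel shows the 5 detected non-members with a motif, of which miR-574-3p, miR-574-5p and miR-1187 have their peak on knockout 2. miR-342-3p is also highest on knockout 2 but at 1.61-fold the median of the other arrays, and miR-362-3p lies below its own median there.

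The non-members most like the mean of the 5 tested members, by Pearson's r over the 6 arrays relative to each array's median tested miRNA, were miR-467a* (0.97), miR-1187 (0.92), miR-574-5p (0.92), miR-181a (0.92) and miR-291b-5p (0.89). That mean stood at -0.07 on knockout 2 and between -1.56 and -1.16 on the other arrays, so these r values rest mainly on knockout 2. miR-467a*, the other arm of miR-467a hairpins, gave 13.8, 11.4 and 15.6 units in controls 1, 2 and 3 and 9.66, 22.5 and 8.61 units in knockouts 1, 2 and 3, and was highest on knockout 2. It is 1 of 4 asterisk entries of these numbers, of which miR-467b* was detected on knockout 2 alone and miR-297a* and miR-467e* on none. miR-1187 gave 29.8, 11.3 and 20.2 units in controls 1, 2 and 3 and 20.3, 41.7 and 15.6 units in knockouts 1, 2 and 3. miR-574-5p gave 67.7, 31.0 and 54.4 units in controls 1, 2 and 3 and 50.7, 86.6 and 37.3 units in knockouts 1, 2 and 3. Both had knockout 2 highest and control 2 lowest. miR-574-3p, chosen after its values were seen, gave 16.7, 2.80 and 7.89 units in controls 1, 2 and 3 and 9.55, 36.3 and 7.59 units in knockouts 1, 2 and 3. miR-342-3p, with CACACA, gave 581, 644 and 442 units in controls 1, 2 and 3 and 646, 605 and 438 units in knockouts 1, 2 and 3, and was brightest on knockout 1. miR-362-3p gave 11.6, 11.9 and 16.0 units in controls 1, 2 and 3 and 7.72, 6.70 and 9.50 units in knockouts 1, 2 and 3, with every control above every knockout before scaling and overlapping groups after it. Scaled, knockout 2 stood at 1.61-fold the median of the other arrays for miR-342-3p and at 0.854-fold for miR-362-3p, which was not detected there. miR-181a spanned 80.4 to 125 units and had its highest unscaled value on control 3.

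The comparison of knockout with control macrophages was made with limma on log2 scaled signal over all 135 tested miRNAs, and 5 members entered it. Of these 5, 0 passed the Benjamini-Hochberg threshold of 0.05, where 0% of all tested miRNAs did. At an unadjusted p under 0.05 there were also 0 members, against 4.44% of tested miRNAs. The groups overlapped for all 5, while 10.4% of tested miRNAs had groups that did not overlap. All 5 fitted differences were above 0, as were 71.9% of those tested, although that of miR-669a turned negative under 3 other choices of scaling or source and that of miR-669f with no scaling, with values given further on. Their median was 0.56, beside 0.11 over all tested miRNAs. Of the members, miR-467f, miR-466i and miR-466f-3p were tested only through their detection on knockout 2.

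Here a value of 1 on the log2 scale is a 2-fold difference and positive values mean higher signal in knockout macrophages. miR-467f differed by 0.71 (SE 0.54; 95% interval -0.51 to 1.94; limma adjusted p = 0.637), which is 1.64-fold. Scaled values stood at -3.67 in control 1 and at the floor of -4.32 in controls 2 and 3, against -3.86, -1.99 and -4.32 in knockouts 1, 2 and 3. Knockout 2 therefore set the difference. miR-466i differed by 0.59 (SE 0.47; 95% interval -0.49 to 1.67; limma adjusted p = 0.668) and miR-466f-3p by 0.56 (SE 0.53; 95% interval -0.65 to 1.77; limma adjusted p = 0.702). For both, controls 2 and 3 and knockout 3 stood at the floor, which holds their differences down. miR-669f differed by 0.43 (SE 0.32; 95% interval -0.30 to 1.16; limma adjusted p = 0.637) and miR-669a by 0.17 (SE 0.22; 95% interval -0.34 to 0.68; limma adjusted p = 0.748), with no array at the floor. The median standard error of the 5 members was 0.47, beside 0.19 over all tested miRNAs, so a 2-fold higher level in knockout macrophages lies within the intervals of all but miR-669a.

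Without knockout replicate 2 the refitted differences were 0.01 for miR-467f, -0.05 for miR-466i, -0.08 for miR-466f-3p, 0.03 for miR-669f and -0.07 for miR-669a, with a median of -0.05. Each had a limma adjusted p above that of the full comparison, from 0.809 for miR-669a to 0.999 for miR-467f. With no scaling between arrays miR-669a differed by -0.28 and miR-669f by -0.03. Quantile scaling gave -0.11 and the series matrix -0.06 for miR-669a.

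**Figure D5:**
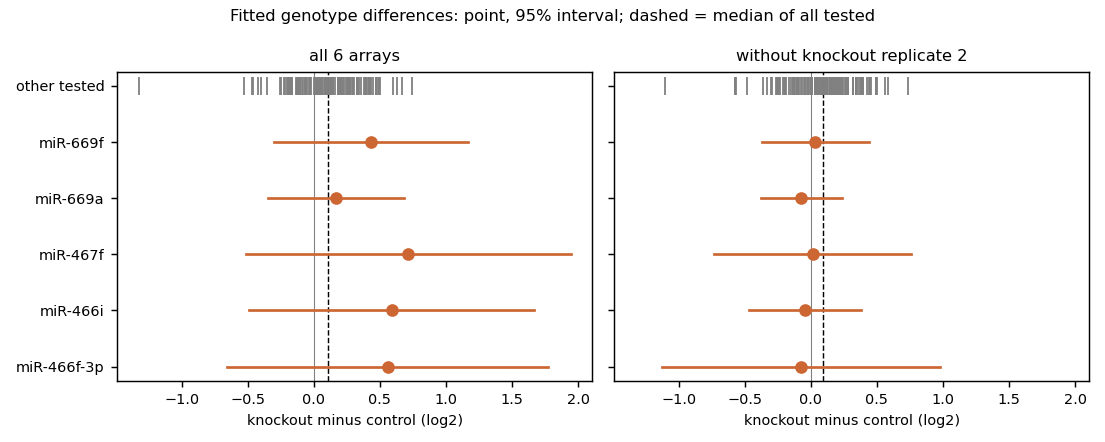
Fitted difference, knockout minus control (log2, points), with its 95% interval (bars) for the 5 tested members over all 6 arrays (left) and without knockout replicate 2 (right), and the other tested miRNAs as grey ticks. The dashed line is the median of all tested miRNAs. With this scaling all 5 points lie above 0 on the left, and on the right they lie between -0.08 and 0.03.

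Slide position was held beside these values. Controls 1 and 2 and knockouts 1 and 2 lay in slide column 1, and control 3 and knockout 3 in column 2. Within column 1 miR-467f differed by 1.07, miR-466i by 0.88, miR-466f-3p by 0.84, miR-669f by 0.68 and miR-669a by 0.35. Those differences rest on 4 arrays that include knockout 2, and the part of that array in them was not separated. Between the 2 arrays of column 2, miR-669f differed by -0.06 and miR-669a by -0.18, and the other 3 entries were at the floor on both. With the column as a block 0 of the 5 passed. Each slide row held 1 genotype, so row and genotype cannot be told apart.

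Of the tested non-members with a motif 0 of 3 were called. miR-1187 differed by 0.74 (SE 0.44; limma adjusted p = 0.637), miR-574-5p by 0.63 (SE 0.38; limma adjusted p = 0.637) and miR-342-3p by 0.47 (SE 0.30; limma adjusted p = 0.637), and for all 3 the groups overlapped. miR-467a*, whose sequence was not matched, differed by 0.43 (SE 0.33, limma adjusted p = 0.643), with every array but knockout 2 at the floor. It was detected on controls 1, 2 and 3 and not on knockouts 1 and 3, yet the floor gave all of these arrays the same value.

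The summed scaled signal of all 35 entries, detected or not, gave a knockout over control ratio of 1.77, and of 0.937 without knockout 2. Over the 10 detected entries, 3 of which passed through knockout 2 alone, the ratio was 1.90 and 1.05 without that array. Over the 7 detected on another array as well it was 1.75, and 1.03 without knockout 2. These ratios are descriptions with no test.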

How the data were processed

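The deposited spot intensity values had background subtracted by Feature Extraction, whose version is 10.5.1.1 per the file headers and 9.1 per the submitters' processing notes. Gene-level intensity totals and detection calls were deposited too. The series matrix deposited by the authors is on a log2 scale, and its normalization is not stated in the labels or headers.

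For each of 1759 mouse probes the median intensity of unflagged spots was divided by the array's 75th percentile over 200 probes detected on all arrays. Values under the 5th percentile of detected signals were set to it as a floor, log2 was taken, and each miRNA took its brightest probe. The genotype fit used limma 3.58.1 (lmFit, eBayes) under R 4.3.3 over 135 miRNAs, with Benjamini-Hochberg adjustment, and the procedure was tested on simulated data. The number of arrays limits the precision. Entries were matched to RefSeq by name. The members and lists were chosen with earlier results of these data known. Every member detected on 1 or more arrays was named, as were the 5 most similar tested non-members, tested asterisk entries and tested non-members with GUGUGU. The ACACAC search and its comparison miRNAs were added after values were seen. Alternatives covered background correction, scaling, floor, filter, probes, detection rule, source of values, blocks, variance model and left-out arrays.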

Additional observations from a re-analysis of the deposited data

How the results depend on the processing

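In all settings run, limma called 0 of the members tested and 0 miRNAs overall. Under the main setting 6 of 135 miRNAs had an unadjusted p under 0.05 and 0 of 5 members did. With normexp background correction these were 30 and 4, and the smallest member limma adjusted p was 0.0707 for miR-467f, at 0.55. With that correction all 5 members had the same SE, 0.168, beside 0.22 to 0.54 under the main setting. Those p-values therefore do not reflect each entry's own spread between arrays. The sign turned for miR-669a with quantile scaling (-0.11), with no scaling (-0.28), in the series matrix (-0.0615), without knockout replicate 2 (-0.07) and without that array and control replicate 1 (-0.0941, an alternative added once the data had been seen). It turned for miR-669f with no scaling (-0.0250) and without both arrays (-0.0806), and without knockout replicate 2 for miR-466f-3p (-0.0759) and miR-466i (-0.0451). Leaving out each array in turn, the summed signal ratio ran from 1.05 to 2.41 and the median member difference from -0.05 to 0.94. By entry the same range was -0.0759 to 1.01 for miR-466f-3p, -0.0451 to 0.94 for miR-466i, 0.01 to 1.18 for miR-467f, -0.07 to 0.30 for miR-669a and 0.03 to 0.639 for miR-669f. Scaling moved the median of all tested miRNAs from 0.11 to -0.31 with no scaling, where the member median was 0.30. A single flagged spot as the detection rule gave 19 entries detected in place of 10, with the control mean above the knockout mean (9.33 against 7.67), and the gene-level call and the error-based rule gave 12. With the replicate number as a block, 0 members passed and the median difference was 0.56, with 13 miRNAs at an unadjusted p under 0.05. The labels do not say that the numbers pair the samples. Deviations of same-numbered arrays correlated at 0.17, -0.07 and 0.37, which cannot settle the question with so few arrays. Dim signal limits the rest: with no filter, 25 entries below detection were included and the median difference was 0.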

Other observations

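The gene-level detection call of the scanner software, which sums over the probes of a miRNA, added 2 entries to the 10 detected by the spot rule. miR-467b was called on 4 arrays and miR-466c-5p on 1, so that 1 of 7 entries named 5p was called by that rule. It also called miR-466f-3p and miR-467f on all 6 arrays, miR-466a-3p on 5, miR-466i on 4, and miR-466g and miR-669c on 3. By this rule 9, 6 and 7 entries were called in controls 1, 2 and 3 and 7, 12 and 5 in knockouts 1, 2 and 3.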
